A study of Homo sapiens with 12 samples.

Results

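Hepatic stellate and smooth muscle markers were followed in human embryonic stem cells led toward hepatocytes, with and without thyroid hormone. The markers were 10 genes, ACTA2, TAGLN, MYL9, CNN1, DES, PDGFRA, PDGFRB, THY1, POSTN and DCN, taken by their Entrez numbers from the table of every library. They were 10 of the 23922 genes in those tables, and the expected counts and FPKM (read fragments scaled to transcript length and library size) of their transcripts were summed per gene. The RNA came from H9, a human embryonic stem cell line, at day 19 of differentiation, when the labels call the cells hepatocytes, and at day 7, when they call them hepatoblasts. On each day cells had received 30 nM T4, 30 nM T3 or, as controls, 0.1% DMSO, and each of the 6 groups had 2 libraries. T4 (thyroxine) carries 1 more iodine than T3 (triiodothyronine), which binds the nuclear thyroid hormone receptors more tightly. The labels do not say when hormone was given, which vehicle the hormone-treated cells received, or whether both libraries of each group are separate cultures. The p-values thus cover the spread between libraries alone, which may be technical, and all groups share a single cell line.

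Stellate cells are the pericyte-like cells of the liver sinusoid. When activated in injured liver they become myofibroblasts that contract and lay down matrix, and they then share with vascular smooth muscle a set of contractile genes that serum response factor (SRF) and its cofactors control. ACTA2 (smooth muscle alpha-actin), TAGLN (transgelin), MYL9 (a myosin regulatory light chain) and CNN1 (calponin) belong to that contractile set, and DES (desmin) is a muscle intermediate filament. PDGFRA and PDGFRB are the tyrosine kinase receptors for platelet-derived growth factors, which drive growth and migration of mesenchymal cells. THY1 is a surface glycoprotein of fibroblasts, POSTN (periostin) a secreted matrix protein and DCN (decorin) a small leucine-rich proteoglycan that binds collagen. PDGFRA is also expressed in early mesoderm and primitive endoderm.

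Promoter sequence was held for 5 of the 10 genes, as RefSeq windows from 250 bases before to 50 bases after the gene start in GRCh38.p14. Those of both receptor genes are shown because these genes moved in opposite directions between the days, and that of POSTN because it had the largest fall with T4. Capitals mark matches to CCAAT or TATAAA on either strand.
PDGFRA, chr4:54229043-54229342, plus strand: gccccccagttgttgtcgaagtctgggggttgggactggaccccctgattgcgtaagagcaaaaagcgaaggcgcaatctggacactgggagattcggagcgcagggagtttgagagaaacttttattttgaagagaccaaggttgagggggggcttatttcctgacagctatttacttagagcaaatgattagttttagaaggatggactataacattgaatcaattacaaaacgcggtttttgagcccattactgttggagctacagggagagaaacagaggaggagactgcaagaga
PDGFRB, chr5:150155796-150156095, minus strand: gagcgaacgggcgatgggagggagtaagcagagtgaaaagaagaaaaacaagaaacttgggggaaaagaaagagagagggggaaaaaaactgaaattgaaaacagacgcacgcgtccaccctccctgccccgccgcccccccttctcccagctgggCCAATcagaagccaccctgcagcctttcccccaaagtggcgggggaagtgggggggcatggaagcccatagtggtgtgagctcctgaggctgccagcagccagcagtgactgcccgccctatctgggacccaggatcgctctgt
POSTN, chr13:37598719-37599018, minus strand: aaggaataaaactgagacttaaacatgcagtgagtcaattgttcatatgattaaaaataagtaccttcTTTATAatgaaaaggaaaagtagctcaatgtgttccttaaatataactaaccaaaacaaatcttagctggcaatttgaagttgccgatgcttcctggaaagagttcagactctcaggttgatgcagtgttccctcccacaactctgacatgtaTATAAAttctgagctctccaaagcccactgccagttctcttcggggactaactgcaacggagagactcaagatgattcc
The PDGFRA window held neither motif. The PDGFRB window held CCAAT, the motif of nuclear factor Y, beginning 94 bases before the start. The CNN1 window held CCAAT at 161 and at 72 bases before its start, and 34.6% of all 35116 promoter windows held this motif. The POSTN window held TATAAA, the TATA box, 29 bases before the start, and its reverse complement TTTATA 182 bases before it, where 11.5% of all windows held TATAAA on either strand. The 5 windows were those of ACTA2, CNN1, PDGFRA, PDGFRB and POSTN. Each lies at the outer start of its gene. Other transcript starts, as may exist for ACTA2 with its 3 listed transcripts, were not searched. The CArG box bound by SRF was in 0 of the 5 windows and in 1.29% of all windows, a share at which 0 of 5 says little. AGGTCA, the core of thyroid hormone response elements, was in 0 of 5 and in 13.8% of all windows, and CATTCC, the motif of TEAD factors, was in 0 of 5 and in 14.0%. These are matches of letters, and a window without a match says only that the letters are not in it.

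Total expected counts were 18363549 to 19306181 per library. Levels are given as CPM, counts scaled to a common library size by TMM, and differences as log2 fold changes with edgeR's quasi-likelihood test over the 18101 genes that passed a filter on low counts. A gene was called changed at a Benjamini-Hochberg adjusted p of at most 0.05. Hepatocyte markers summed to 7402 to 8311 CPM with T4, 2878 to 3863 CPM with T3 and 63756 to 67402 CPM in DMSO at day 19. Of these, 9 of 10 were lower with each hormone, against 21.9% of all tested genes with T4 and 27.3% with T3. The 10 most abundant genes took 6.93% to 6.94% of counts in the hormone libraries of day 19 and 11.7% to 12.1% in DMSO. Pluripotency markers at day 7 summed to 1327 to 1329 CPM with T4, 1867 to 1878 CPM with T3 and 619 to 623 CPM in DMSO. All 7 of the 7 tested were higher with each hormone, against 3.9% of all tested genes with T4 and 9.43% with T3. Libraries of a day 7 group differed from each other by a chi-square of 1.59 to 2.07 per gene, and those of a day 19 group by 4.80 to 8.27. The test estimated the spread of a gene from all 12 libraries together. A day 7 p-value thus also carries the larger spread of day 19, and a day 19 p-value the smaller spread of day 7. Some calls changed when the libraries of a day were tested alone, as given below.

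The label of the gene set was set against defining genes of the cell types. MYH11, the myosin heavy chain of differentiated smooth muscle, averaged 0.45 to 1.27 CPM in the 6 groups. MYOCD, the SRF cofactor of the smooth muscle lineage, averaged 0.95 to 2.43 CPM. LHX2, a transcription factor of quiescent stellate cells, was below 0.5 CPM in every library, and HGF, a growth factor of stellate cells, averaged 0.05 to 0.73 CPM. They were not the only low markers, as DES averaged 0.83 to 0.94 CPM in the day 7 groups and 10.8 to 19.9 CPM in those of day 19. Other smooth muscle markers rose with time. The ACTG2 transcript NM_001615 had 6.64 to 9.90 FPKM in the day 19 libraries and 0 to 0.65 FPKM in those of day 7. LMOD1, described below, was also higher at day 19 in DMSO. LHX2 was the 1 of 9 stellate markers, with 0 of 8 smooth muscle markers, that stayed below 0.5 CPM in every library. The smooth muscle markers summed to 527 to 653 CPM at day 19 and 116 to 136 CPM at day 7, and the 5 of them outside the 10 genes to 75.6 to 106 CPM and 35.4 to 41.2 CPM. The stellate markers summed to 106 to 207 CPM at day 19 and 74.2 to 82.7 CPM at day 7, and the 7 outside the 10 genes to 20.7 to 54.7 CPM and 68.6 to 76.9 CPM. No cell type is named from these levels here. In such bulk RNA, fewer cells of a type and less RNA per cell cannot be told apart.

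Between the days, the markers other than THY1 changed far more than with hormone. With T4, 10 of the 10 genes were called, 9 higher and 1 lower at day 19, against 71.9% of all tested genes called, 35.5% higher and 36.4% lower. With T3, 8 were higher and 2 lower, against 73.1% of tested genes called, 35.2% higher and 37.9% lower. In DMSO, 9 were higher and 1 lower, against 72.4% called, 37.6% higher and 34.9% lower. The median log2 fold change of the 10 genes was 3.02 with T4, 2.99 with T3 and 3.28 in DMSO, where the medians of all tested genes lay at -0.03, -0.06 and 0.00. DCN and POSTN passed the filter through their day 19 libraries alone, so their day difference was bound to be large. Without them, 7 of 8 genes were higher and 1 lower with T4, 6 higher and 2 lower with T3 and 7 higher and 1 lower in DMSO, with medians of 2.25, 2.20 and 2.39. At day 19, 7 of 10 genes were called with T4 and 7 of 10 with T3, in each case 2 higher and 5 lower. All tested genes were called in 42.8% with T4, 21% higher and 21.9% lower, and in 52.3% with T3, 25.1% higher and 27.3% lower. The share of called markers was thus near or somewhat above that of all genes. Both hormone groups were set against the same DMSO libraries.

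**Figure D1:**
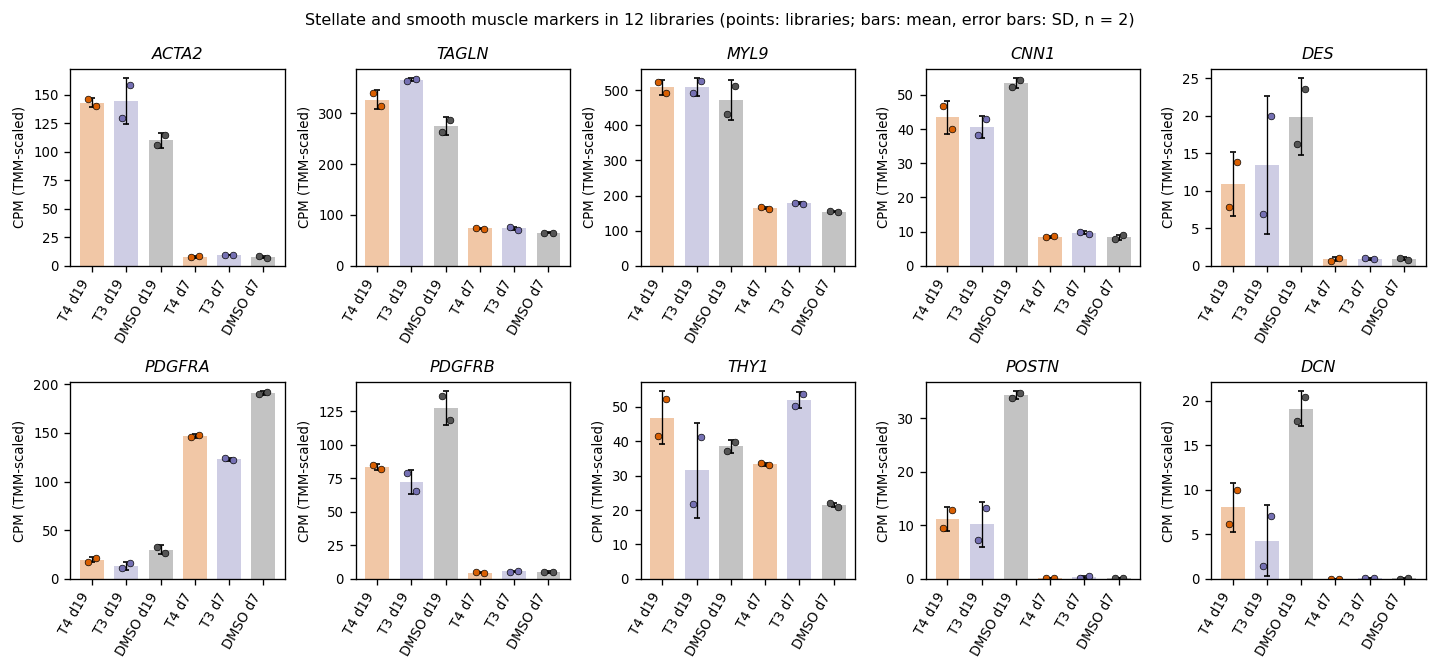
CPM (TMM-scaled) of each gene in the 12 libraries, in a panel per gene with a linear axis from 0, with points for libraries, bars for the mean of a group and error bars for the SD (n = 2). In DMSO, ACTA2 averaged 110.1 CPM at day 19 and 7.51 CPM at day 7, while PDGFRA averaged 30.0 CPM at day 19 and 191 CPM at day 7.

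ACTA2 was higher with both hormones at day 19 and rose strongly with time. At day 19 it had 146 and 140.4 CPM with T4, 129.99 and 159 CPM with T3 and 106 and 115 CPM in DMSO. All 4 hormone libraries lay above both DMSO libraries. The log2 fold change was 0.38 (adjusted p = 0.00291, SE 0.09) with T4 and 0.39 (adjusted p = 0.00178, SE 0.09) with T3, or 1.30-fold and 1.31-fold. Without replicate 2 of T3 the T3 difference was 0.24 and stayed called. At day 7 it had 7.22 and 8.58 CPM with T4, 9.46 and 9.49 CPM with T3 and 8.33 and 6.69 CPM in DMSO, and neither hormone passed the test (adjusted p = 0.852 with T4 and 0.158 with T3). Day 19 exceeded day 7 by a log2 fold change of 4.18 with T4, 3.93 with T3 and 3.87 in DMSO. ACTA2 lies at chr10:88935074-88991337 (GRCh38.p14) and overlaps FAS and ACTA2-AS1, and its near-identical paralogs ACTA1, ACTC1 and ACTG2 could exchange reads with it.

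TAGLN followed ACTA2 at a smaller day difference. At day 19 it had 339.6 and 313 CPM with T4, 364 and 368 CPM with T3 and 263 and 287 CPM in DMSO. The hormone libraries lay above both DMSO libraries without overlap. The log2 fold change was 0.25 (adjusted p = 0.00322, SE 0.06) with T4 and 0.41 (adjusted p = 3.11e-05, SE 0.06) with T3. Day 7 libraries had 73.8 and 72.7 CPM with T4, 75.6 and 70.9 CPM with T3 and 64.2 and 65.2 CPM in DMSO. Both hormone groups lay above DMSO there too, by a log2 fold change of 0.18 (adjusted p = 0.124) with T4 and 0.18 (adjusted p = 0.0767) with T3, but neither passed. With the libraries of day 7 tested alone, both were called. TAGLN, at chr11:117199294-117207465, overlaps PCSK7 and LOC100652768 on the genome.

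MYL9 had the highest FPKM of the 10 genes in every group and did not pass the test with either hormone at either day. At day 19 it had 523 and 494 CPM with T4, 491 and 527 CPM with T3 and 432 and 513 CPM in DMSO. The upper DMSO library lay within the range of the hormone libraries. The 95% interval of the log2 fold change ran from -0.05 to 0.26 with T4 and -0.04 to 0.26 with T3. Without replicate 2 of DMSO, MYL9 was called higher with each hormone, by 0.24 with T3. On log2(FPKM + 1), limma called it with both. There the median of all tested genes was also shifted, to 0.08 with T4 and 0.03 with T3. With counts these medians were 0.00 and -0.03. Day 7 libraries had 168 and 162 CPM with T4, 179.8 and 176 CPM with T3 and 155 and 153 CPM in DMSO, and T3 gave a log2 fold change of 0.21 (adjusted p = 0.0685), which was called only when the day 7 libraries were tested alone. MYL9 was 1.63, 1.52 and 1.62 log2 units higher at day 19 than at day 7 with T4, with T3 and in DMSO. MYL9 lies at chr20:36541519-36551447 and overlaps DLGAP4-AS1, and reads of its paralogs MYL12A and MYL12B could be shared with it.

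CNN1, unlike ACTA2 and TAGLN, was lower with hormone at day 19. It had 46.9 and 40.01 CPM with T4, 38.4 and 42.9 CPM with T3 and 52.3 and 54.5 CPM in DMSO, with all hormone libraries below both DMSO libraries. CNN1 changed by -0.30 (adjusted p = 0.0102, SE 0.08) with T4 and -0.39 (adjusted p = 0.00123, SE 0.09) with T3 on the log2 scale. The call with T4 was lost without replicate 2 of T4, at -0.19 (adjusted p = 0.117), without replicate 2 of DMSO (adjusted p = 0.0535) with limma on FPKM and with DESeq2 (adjusted p = 0.0593). At day 7 CNN1 had 8.25 and 8.73 CPM with T4, 9.998 and 9.34 CPM with T3 and 7.75 and 8.85 CPM in DMSO, and neither hormone passed. It was 2.35, 2.07 and 2.68 log2 units higher at day 19 than at day 7 with T4, with T3 and in DMSO.

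DES was the contractile marker whose libraries differed most within each group of day 19. It had 7.82 and 13.9 CPM with T4, 6.89 and 19.9 CPM with T3 and 16.2 and 23.5 CPM in DMSO. Both T4 libraries lay below DMSO, and the T3 libraries spanned the lower DMSO library. The log2 fold change was -0.87 (adjusted p = 0.0582, SE 0.35) with T4 and -0.57 (adjusted p = 0.187, SE 0.34) with T3, so neither was called. It was called with T4 without replicate 1 of DMSO or replicate 2 of T4, and with T3, at -1.53, without replicate 2 of T3. Day 7 values were 0.639 and 1.02 CPM with T4, 1.03 and 0.832 CPM with T3 and 1.06 and 0.818 CPM in DMSO, and they overlapped. Day 19 exceeded day 7 by 3.69 log2 units with T4, 3.84 with T3 and 4.39 in DMSO.

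PDGFRA was the gene that fell with time in all 3 treatments, and it was lower with both hormones on both days. At day 19 it had 17.8 and 21.4 CPM with T4, 10.8 and 16.6 CPM with T3 and 33.3 and 26.7 CPM in DMSO. At day 7 it had 146 and 148 CPM with T4, 124 and 122 CPM with T3 and 189.6 and 192 CPM in DMSO. The 3 groups of each day did not overlap, and on both days T3 was lowest, with T4 between it and DMSO. At day 19 the log2 fold change was -0.61 (adjusted p = 0.00272, SE 0.14) with T4 and -1.13 (adjusted p = 1.60e-05, SE 0.15) with T3, and limma on log2(FPKM + 0.1) did not call the T4 difference (adjusted p = 0.0505). The day 7 value was -0.38 (adjusted p = 0.0448, SE 0.10) with T4 and -0.64 (adjusted p = 0.000914, SE 0.11) with T3. At that day 1 of 10 genes was called with T4, against 6.42% of all tested genes, 3.9% higher and 2.52% lower, and 2 of 10 with T3 (THY1 higher, PDGFRA lower), against 16%, with 9.43% higher and 6.54% lower. The T4 call at day 7 was lost without any 1 of the 4 libraries compared, though the log2 fold change stayed at -0.39 to -0.36. It was also lost with no filter on low counts and with limma on FPKM. Median-of-ratios size factors, DESeq2 and the libraries of day 7 alone kept it. Day 19 differed from day 7 by a log2 fold change of -2.91 with T4, -3.16 with T3 and -2.67 in DMSO.

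PDGFRB moved the other way with time and was lower with both hormones at day 19. At day 19 it had 85.2 and 81.7 CPM with T4, 78.7 and 65.7 CPM with T3 and 136 and 119 CPM in DMSO. The hormone libraries lay below both DMSO libraries. On the log2 scale PDGFRB differed by -0.61 (adjusted p = 4.33e-05, SE 0.09) with T4 and -0.82 (adjusted p = 1.65e-06, SE 0.09) with T3. Day 7 libraries had 4.96 and 4.24 CPM with T4, 5.34 and 6.02 CPM with T3 and 4.77 and 5.48 CPM in DMSO, which overlapped, and neither hormone passed. Its day difference was 4.18 log2 units with T4, 3.67 with T3 and 4.63 in DMSO. The FPKM ratio of PDGFRB to PDGFRA at day 19 was 5.50 and 4.39 with T4, 8.41 and 4.56 with T3 and 4.71 and 5.12 in DMSO, and these overlapped. At day 7 it was 0.0392 and 0.0328 with T4, 0.0498 and 0.0570 with T3 and 0.0289 and 0.0327 in DMSO. The FPKM ratio of ACTA2 to PDGFRB at day 19 was 6.44 and 6.45 with T4, 6.07 and 9.17 with T3 and 2.90 and 3.63 in DMSO, with the hormone libraries all higher.

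Of the 4 ligand genes of these receptors, 1 was called higher and 1 lower with T4 at day 19, against 21% and 21.9% of all tested genes. With T3, 1 was higher and 3 lower, against 25.1% and 27.3%. PDGFB had 68.2 and 70.7 CPM with T4, 72.3 and 70.04 CPM with T3 and 46.3 and 42.3 CPM in DMSO, a log2 fold change of 0.65 (adjusted p = 2.14e-06, SE 0.07) with T4 and 0.68 (adjusted p = 7.09e-07, SE 0.07) with T3. PDGFA had 93.3 and 91.6 CPM with T4, 81.01 and 86.7 CPM with T3 and 109 and 119 CPM in DMSO, a log2 fold change of -0.30 (adjusted p = 0.000815, SE 0.06) with T4 and -0.44 (adjusted p = 1.99e-05, SE 0.06) with T3. Groups of either gene did not overlap between hormone and DMSO. PDGFC differed by -0.05 (adjusted p = 0.659) with T4 and -0.22 (adjusted p = 0.0461) with T3. PDGFD differed by 0.22 (adjusted p = 0.426) with T4 and -0.65 (adjusted p = 0.0320) with T3. In DMSO, 3 of the 4 were higher at day 19 than at day 7 and PDGFD was lower, by a log2 fold change of -2.02. Of all tested genes, 37.6% were higher and 34.9% lower there.

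THY1 was the gene that T3 raised at day 7. It had 33.7 and 33.02 CPM with T4, 50.3 and 53.7 CPM with T3 and 21.96 and 20.97 CPM in DMSO, so the 3 groups did not overlap. The log2 fold change was 1.28 (adjusted p = 0.000390, SE 0.19) with T3, or 2.42-fold, and 0.64 (adjusted p = 0.0738, SE 0.20) with T4. The T4 difference thus missed the threshold, and it was called by edgeR with the day 7 libraries tested alone (adjusted p = 7.61e-06). At day 19 THY1 had 41.4 and 52.2 CPM with T4, 21.8 and 41.3 CPM with T3 and 37.1 and 39.8 CPM in DMSO. Neither hormone passed there, by a log2 fold change of 0.28 (adjusted p = 0.242) with T4 and -0.28 (adjusted p = 0.239) with T3, and the T3 libraries lay on both sides of DMSO. Without replicate 2 of T3 the T3 difference was -0.82 and called. The day difference took a different sign by treatment, at 0.49 (adjusted p = 0.0271) with T4, -0.72 (adjusted p = 0.00283) with T3 and 0.84 (adjusted p = 0.00141) in DMSO. The T4 value was lost without replicate 2 of T4 at day 19 (0.31, adjusted p = 0.236) or either T4 library of day 7. The T3 value was -0.33 without replicate 1 and -1.25 without replicate 2, and limma on FPKM called neither the T4 nor the DMSO difference. DESeq2 did not call the T4 difference either (adjusted p = 0.0835). THY1 lies at chr11:119415476-119424985 and overlaps USP2-AS1.

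POSTN had the largest fall with T4 among the markers at day 19. It had 9.53 and 12.8 CPM with T4, 7.24 and 13.1 CPM with T3 and 33.7 and 34.8 CPM in DMSO. The highest hormone library lay well below the lowest DMSO library. It was 3.07-fold lower with T4 and 3.35-fold lower with T3, a log2 fold change of -1.62 (adjusted p = 1.43e-05, SE 0.20) and -1.75 (adjusted p = 4.87e-06, SE 0.21). At day 7 no library exceeded 0.489 CPM, and the groups summed to 7 counts with T4, 13 with T3 and 5 in DMSO. Day 19 exceeded day 7 by a ratio of 65.1 (95% counting interval 31.3 to 163) with T4, 32.2 (18.6 to 61.0) with T3 and 285 (122 to 879) in DMSO. These intervals cover counting error only.

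DCN had the largest fall with T3 at day 19, with a wide spread. It had 6.11 and 9.95 CPM with T4, 1.497 and 7.10 CPM with T3 and 17.7 and 20.5 CPM in DMSO. The hormone libraries again lay below both DMSO libraries. DCN differed by a log2 fold change of -1.25 (adjusted p = 0.0148, SE 0.37) with T4 and -2.14 (adjusted p = 0.000495, SE 0.40) with T3. The T3 value was -3.67 without replicate 2 of T3 and -1.43 without replicate 1, called in both cases. The T4 call was lost without replicate 1 of T4 (-0.94, adjusted p = 0.138) or replicate 2 of DMSO (adjusted p = 0.068), and with limma on log2(FPKM + 0.1) (adjusted p = 0.0946). At day 7 DCN had 0 counts over both T4 libraries, 2 over T3 and 2 over DMSO, which gives no fold between treatments. Against a floor of 3 counts over the group, DCN was at least 109-fold higher at day 19 than at day 7 with T4. The ratio was 88.6 (24.1 to 738) with T3 and 396 (109 to 3280) in DMSO.

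**Figure D2:**
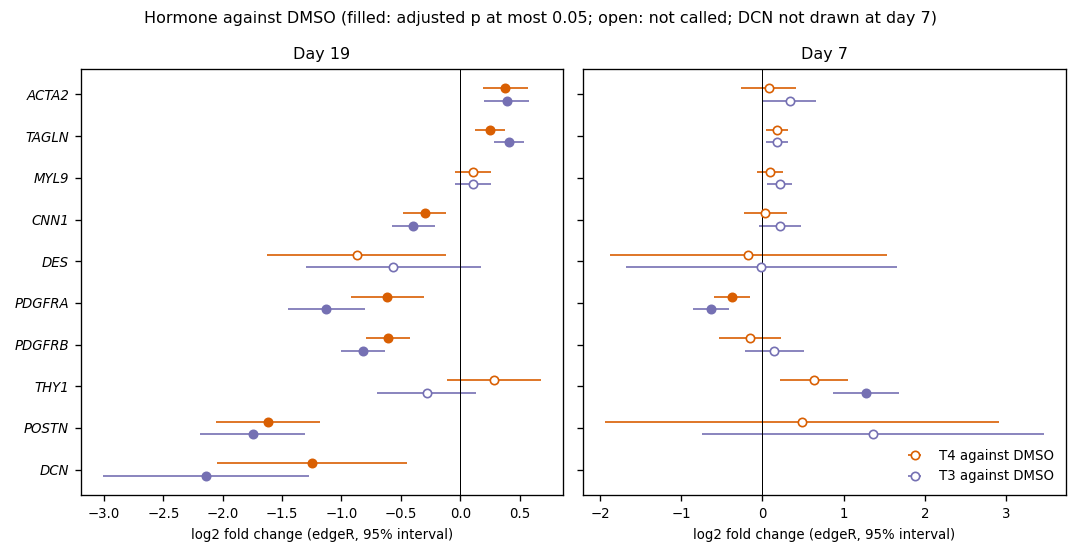
Log2 fold change of each gene with T4 (upper marker) and T3 (lower marker) against DMSO, at day 19 on the left and day 7 on the right, with 95% intervals from edgeR and filled markers where the adjusted p is at most 0.05. DCN is not drawn at day 7. At day 19 ACTA2 and TAGLN lie above 0 and CNN1, PDGFRA, PDGFRB, POSTN and DCN below it with both hormones, and at day 7 PDGFRA is the gene called with both.

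T4 and T3, both at 30 nM, were compared directly in 10 genes on each day. At day 19, 1 of 10 genes was called, against 15.7% of all tested genes, 7.42% higher and 8.31% lower. PDGFRA was higher with T4 than with T3 by a log2 fold change of 0.52 (adjusted p = 0.0394, SE 0.16). That call was lost without replicate 1 of T3 (0.24, adjusted p = 0.352) or replicate 2 of T4 (0.37, adjusted p = 0.25), with no filter and with limma on FPKM. Without replicate 2 of T3 the difference was 0.86, and 4 genes were called, with THY1 at 1.10, POSTN at 0.62 and DCN at 2.42. Without replicate 1 of T3, 2 genes were called, DES at -0.87 and PDGFRB at 0.34. THY1 differed by 0.57 (adjusted p = 0.0568), with a 95% interval of 0.16 to 0.97. TAGLN differed by -0.16 (adjusted p = 0.0738) and PDGFRB by 0.21 (adjusted p = 0.135), with intervals of -0.29 to -0.04 and 0.02 to 0.40, and TAGLN was called with median-of-ratios size factors (adjusted p = 0.0376) and DESeq2 (adjusted p = 0.0359). The interval was -0.20 to 0.18 for ACTA2, -0.15 to 0.15 for MYL9, -0.09 to 0.28 for CNN1 and -0.35 to 0.60 for POSTN. It was wider for DES (-1.08 to 0.46) and DCN (-0.03 to 1.82). At day 7, 0 of 10 genes were called, against 0.365% of all tested genes, 0.0387% higher and 0.326% lower, and 2 genes had an unadjusted p under 0.05. These were THY1 at -0.64 (adjusted p = 0.262) and PDGFRA at 0.26 (adjusted p = 0.632). Both were called by edgeR when the day 7 libraries were tested alone (adjusted p = 8.97e-06 and 0.000600). Of the other 8, MYL9, CNN1, ACTA2 and PDGFRB differed by -0.11, -0.19, -0.26 and -0.30, each with an interval that held 0, the interval of TAGLN was -0.14 to 0.14, and DES, POSTN and DCN were too low at day 7 for a close estimate. A difference that misses the threshold does not show that the hormones act alike.

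The effect of T3 differed between day 19 and day 7 in 6 of 10 genes, 1 upward and 5 downward, against 38% of all tested genes, 17.1% upward and 20.9% downward. THY1 showed it at -1.56 (adjusted p = 0.000356), with a higher level at day 7 and no call at day 19. The count was 3 without either DMSO library of day 7 or replicate 2 of T3 at day 7. POSTN was among the 6, though its day 7 groups held 13 counts with T3 and 5 in DMSO. Without DCN and POSTN, which passed the filter through day 19 alone, 1 of 8 genes went upward and 4 downward. The effect of T4 differed between the days in 0 of 10 genes, against 27.7% of all tested genes, 12.4% upward and 15.3% downward. Of the 10, 2 had an unadjusted p under 0.05, PDGFRB at -0.46 (adjusted p = 0.106) and CNN1 at -0.33 (adjusted p = 0.120). The other differences were 0.31 for ACTA2, 0.07 for TAGLN, 0.01 for MYL9, -0.70 for DES, -0.23 for PDGFRA, -0.35 for THY1 and -2.11 for POSTN, and DCN had 0 counts with T4 at day 7.

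In these markers, the T3 libraries of day 19 differed from each other more than those of other groups. Replicate 2 was higher than replicate 1 in 9 of 10 genes, and the ratio of replicate 2 to replicate 1 was 4.74 for DCN, 2.89 for DES, 1.90 for THY1, 1.81 for POSTN and 1.54 for PDGFRA. The median absolute log2 ratio between these 2 libraries was 0.452 over the markers and 0.133 over all genes. Between the T4 libraries of day 19 it was 0.245 and 0.116, and between the DMSO libraries of that day 0.164 and 0.128. In the T3 libraries of day 19 fibroblast markers summed to 1632 to 2467 CPM and hepatocyte markers to 2878 to 3863 CPM. Whether cell composition had a part in this was not tested.

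By FPKM, which is scaled to length and allows comparison between genes, MYL9 led and TAGLN came next in every group. MYL9 averaged 409 ± 14.6 FPKM with T4, 396 ± 27.7 FPKM with T3 and 346 ± 40.8 FPKM in DMSO at day 19 (SD, n = 2 each). At day 19 ACTA2 came next, at 87.1 ± 2.10 FPKM with T4, 84.4 ± 15.4 FPKM with T3 and 61.05 ± 3.61 FPKM in DMSO. At day 7 ACTA2 averaged 5.95 ± 0.778, 7.03 ± 0.106 and 5.59 ± 1.13 FPKM with T4, with T3 and in DMSO, close to CNN1 in each. PDGFRA took rank 3 of 10 at day 7 with T4, at 24.5 ± 0.368 FPKM, and in DMSO, at 32.4 ± 0.382 FPKM, while THY1 took that rank with T3, at 26.2 ± 0.948 FPKM. At day 19 PDGFRA was at rank 9 in all 3 treatments. DCN had the lowest FPKM of the 10 in all groups. By CPM at day 19, the T4 and T3 libraries overlapped for ACTA2, MYL9, CNN1, DES, POSTN and DCN and did not for TAGLN, PDGFRA, PDGFRB and THY1.

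Most genes were carried by 1 RefSeq transcript. TAGLN, CNN1 and THY1 had a transcript with 97.5% to 99.6%, at least 99.2% and 85.6% to 93.5% of the gene's FPKM in every library. MYL9 changed its makeup with time. Its shorter transcript NM_181526 held 21.8% and 22.0% of MYL9 FPKM with T4, 23.1% and 23.8% with T3 and 20.9% and 17.6% in DMSO at day 19. At day 7 it held 12.7% and 5.87% with T4, 7.82% and 11.4% with T3 and 5.20% and 7.58% in DMSO. All 6 libraries of day 19 thus lay above all 6 of day 7, and the rest of the gene was NM_006097. For ACTA2 the transcript NM_001613 held 56.5% to 83.7% of FPKM and its day 7 and day 19 shares overlapped, with the gene under 10 FPKM at day 7. Such splits are RSEM estimates from shared reads.

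**Figure D3:**
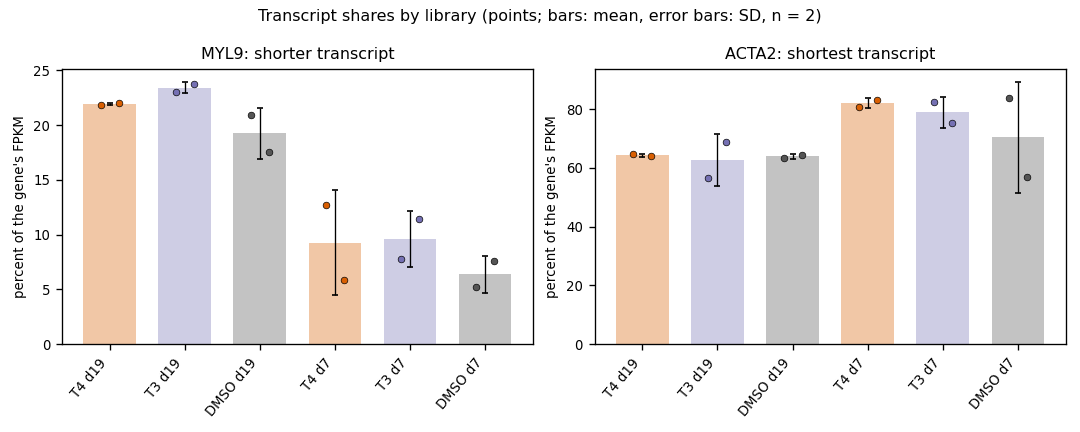
Percent of MYL9 FPKM in the shorter transcript NM_181526 (left) and of ACTA2 FPKM in NM_001613 (right) in the 12 libraries, with points for libraries, bars for means and error bars for the SD (n = 2). The MYL9 share ranges from 17.6% to 23.8% at day 19 and from 5.20% to 12.7% at day 7, and the ACTA2 shares of the 2 days overlap.

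The wider contractile apparatus of smooth muscle moved in both directions with hormone. Of 24 tested genes of that list, 7 were higher and 10 lower with T4 at day 19, against 21% and 21.9% of all tested genes. With T3, 8 were higher and 9 lower, against 25.1% and 27.3%. The list medians were -0.02 with T4 and -0.05 with T3, and the medians of all tested genes 0.00 and -0.03. ACTN1, an actin cross-linker, had 478 and 442 CPM with T4, 579 and 512 CPM with T3 and 312 and 304 CPM in DMSO, a log2 fold change of 0.83 (adjusted p = 4.21e-08, SE 0.06) with T3. MYLK, the kinase of the regulatory light chain, had 21.7 and 24.2 CPM with T4, 14.4 and 13.7 CPM with T3 and 35.7 and 26.8 CPM in DMSO, a log2 fold change of -1.16 (adjusted p = 2.62e-06, SE 0.13) with T3. CALD1 (caldesmon) differed by 0.40 (adjusted p = 1.51e-05) with T3, and CNN3, another calponin, by -0.45 (adjusted p = 3.37e-05). In DMSO 19 of 24 were higher and 1 lower at day 19 than at day 7, with a median of 0.82, against 37.6% and 34.9% of all tested genes. The LIM protein CSRP1 was higher by 2.77 (adjusted p = 9.32e-14) and LMOD1, leiomodin, by 3.25 (adjusted p = 7.39e-12). Among SRF, its cofactors and related regulators, 2 of 13 were higher and 4 lower with T4, against 21% and 21.9% of all tested genes. With T3, 2 were higher and 5 lower, against 25.1% and 27.3%. FHL2, a LIM protein that binds SRF, had 112 and 94.98 CPM with T4, 162 and 148 CPM with T3 and 36.7 and 37.8 CPM in DMSO, a log2 fold change of 1.47 (adjusted p = 4.27e-09, SE 0.08) with T4 and 2.06 (adjusted p = 5.19e-11, SE 0.08) with T3. SRF itself differed by 0.24 (adjusted p = 0.0166) and 0.27 (adjusted p = 0.00571), and HAND2, a mesenchymal transcription factor, by -1.30 (adjusted p = 0.000214) with T3.

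Matrix genes of fibroblasts were called in both directions. Of 14 tested, 4 were higher and 7 lower with T4 at day 19, against 21% and 21.9% of all tested genes, and 5 higher and 8 lower with T3, against 25.1% and 27.3%. The list medians were -0.44 with T4 and -0.57 with T3, against 0.00 and -0.03 over all tested genes. BGN (biglycan), a close relative of DCN, had 89.8 and 92.4 CPM with T4, 153 and 117 CPM with T3 and 36.6 and 30.6 CPM in DMSO. It was 2.71-fold higher with T4 (adjusted p = 9.01e-08) and 4.01-fold higher with T3 (adjusted p = 1.23e-09), where DCN was lower with both. TGFBI, a relative of POSTN with the same fasciclin domains, had 696 and 634 CPM with T4, 282 and 288 CPM with T3 and 1478 and 1341 CPM in DMSO, at -1.08 (adjusted p = 5.06e-09, SE 0.06) with T4 and -2.31 (adjusted p = 2.14e-12, SE 0.07) with T3. The elastic fibre gene FBLN5 differed by -1.56 (adjusted p = 2.11e-08) and -1.72 (adjusted p = 4.43e-09), and the collagen-binding SPARC by -1.14 (adjusted p = 1.39e-07) and -1.48 (adjusted p = 5.12e-09). In DMSO 12 of 14 were higher and 1 lower at day 19 than at day 7, against 37.6% and 34.9% of all tested genes. Among the 14, LUM was higher by 5.80 and FBLN1 by 2.97 log2 units. The summed fibroblast markers, 4 of 7 of them among the 10 genes, were 2430 to 2871 CPM with T4, 1632 to 2467 CPM with T3 and 5109 to 5291 CPM in DMSO. The part of this sum in the matrix differences was not tested.

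More stellate cell genes outside the set were called lower than higher with hormone. Of 14 tested, 2 were higher and 7 lower with T4 at day 19, against 21% and 21.9% of all tested genes, and 3 higher and 9 lower with T3, against 25.1% and 27.3%. The list medians were -0.45 with T4 and -0.62 with T3. The same shares of all tested genes stand behind the pericyte, cardiac and skeletal counts that follow. CYGB (cytoglobin), a globin of stellate cells, had 33.04 and 33.3 CPM with T4, 48.2 and 44.2 CPM with T3 and 17.8 and 19.3 CPM in DMSO, a log2 fold change of 1.32 (adjusted p = 6.95e-08, SE 0.10) with T3. BAMBI, a decoy receptor for TGF-beta signals, had 165 and 155 CPM with T4, 100.4 and 117 CPM with T3 and 240.2 and 242 CPM in DMSO, at -1.15 (adjusted p = 3.03e-09, SE 0.07) with T3. VIM (vimentin) differed by -1.05 (adjusted p = 2.73e-07) and RELN (reelin) by -1.63 (adjusted p = 1.71e-06) with T3. LRAT, which esterifies retinol for storage, was lower at day 19 than at day 7 in DMSO by a log2 fold change of -2.56. Of 8 tested pericyte genes, 1 was higher and 2 lower with T4, and 1 higher and 3 lower with T3, among them ANPEP at -0.98 (adjusted p = 5.32e-07) and KCNJ8 at -1.18 (adjusted p = 6.07e-06) with T3. Of 10 tested cardiac muscle genes, 1 was higher and 6 lower with T4 and 1 higher and 9 lower with T3, with TNNC1 at -1.78 (adjusted p = 1.25e-08) and ACTC1 at -0.88 (adjusted p = 2.54e-08) with T3. Skeletal muscle genes gave 3 tested genes, of which 0 were higher and 1 lower with T4, and 1 higher and 1 lower with T3.

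**Figure D4:**
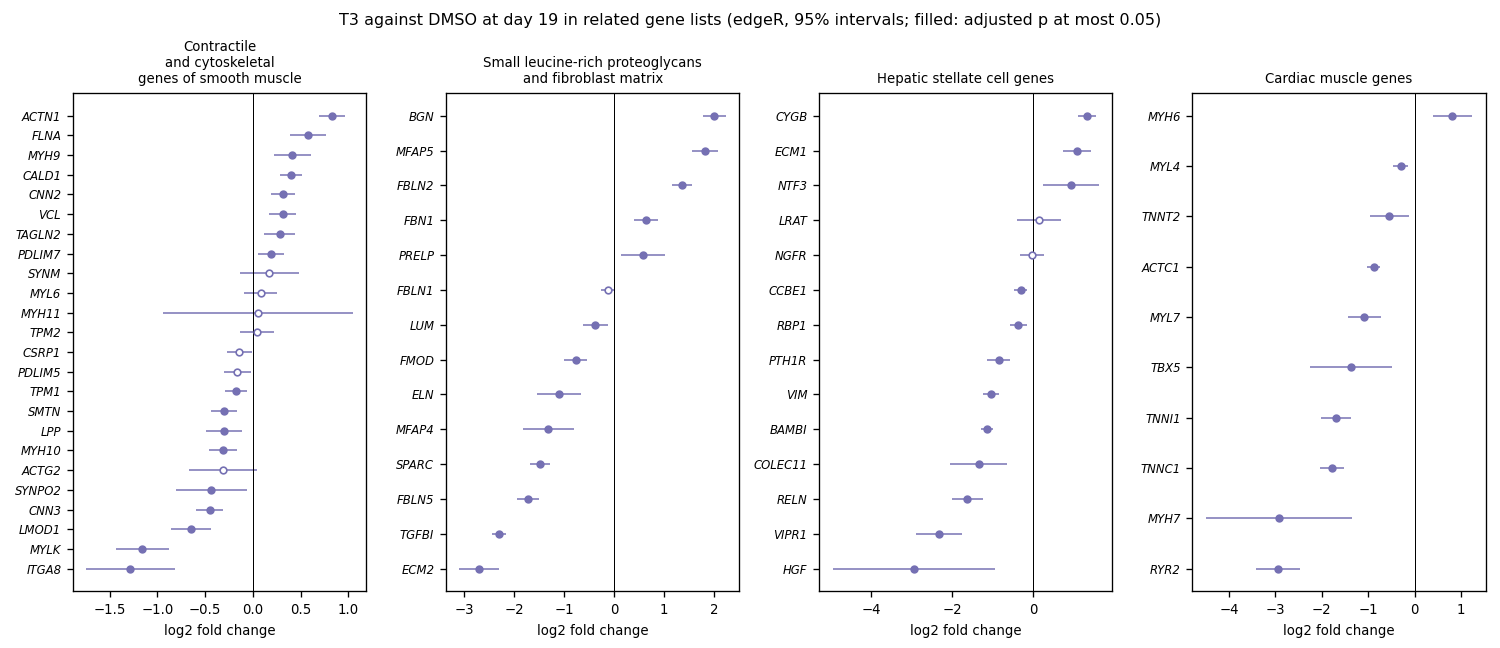
Log2 fold change with T3 against DMSO at day 19 for tested genes of 4 related lists, 1 panel each, ordered by value, with 95% intervals from edgeR and filled markers where the adjusted p is at most 0.05. ACTN1 (0.83) and MYLK (-1.16) lie near opposite ends of the contractile list, and BGN and TGFBI near those of the matrix list.

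The genes whose pattern over the 12 libraries was nearest to each marker are given as a description, by Pearson's r of log2(CPM + 1). The 12 points share the day difference, which sets most of these values. The nearest gene was IGFBP4 for ACTA2 (r = 0.999), FN3K for TAGLN (0.999), VEGFB for MYL9 (0.998), ABCC3 for CNN1 (0.997) and TMEM151A for DES (0.994). It was LBR for PDGFRA (0.998), PTN for PDGFRB (0.998), F2RL1 for POSTN (0.997) and PMP22 for DCN (0.993). THY1 stood apart with its nearest gene OLFML3 at 0.879. Among the markers themselves, THY1 correlated with the other 9 at -0.20 to 0.34, and PDGFRA ran against each of the other 9, at -0.99 to -0.20. ACTA2, TAGLN and MYL9 correlated with each other at 0.996 to 0.997 over the 12 libraries.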

How the data were processed

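Total RNA of 12 libraries was sequenced, 2 for each of 6 groups, which were taken from the labels' day and treatment. The deposited tables list, per RefSeq transcript, expected counts and FPKM, with hg38 and the tools HISAT, Bowtie2 and RSEM named without versions per the submitters' processing notes. Expected counts, as the authors deposited them, are reads shared out among transcripts and are not normalised. FPKM, as deposited by the authors, is scaled to transcript length and mapped reads. Transcripts with an FPKM under 0.01 are not listed, and the strand of counting is not given in the sources used here, so overlapping genes cannot be separated with certainty.

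Expected counts were summed per gene and rounded in Python 3.11.15 (pandas 2.3.3, numpy 2.4.6). Of 23922 genes, 23801 matched a symbol by Entrez number and 121 did not, with 0.103% to 0.145% of a library's counts. In R 4.3.3, edgeR 4.0.16 fitted the 6 group means to all 12 libraries with TMM scaling, after filterByExpr had kept 18101 genes. The quasi-likelihood test had 6 residual degrees of freedom, and p-values were adjusted over all tested genes by Benjamini and Hochberg. The SE is the log2 fold change divided by the root of the test's F value. The script was tested on simulated counts. Alternatives were median-of-ratios size factors, no filter, DESeq2 1.42.0, limma 3.58.1 on log2(FPKM + 1) and log2(FPKM + 0.1), replicate number as a block, the libraries of that day alone and 12 fits that each left out a library. A floor of 3 counts per group stands for a group at 0.

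The 10 genes and the lists beside them were chosen with earlier results of these data known. All 10 genes could be named in every comparison. Of each list, the 4 genes with the smallest p with T3 at day 19 and the 4 with the smallest p between the days in DMSO could be named. MYH11, MYOCD, LHX2 and HGF were named as markers of a cell type, without regard to this rule. The nearest patterns were sought among tested genes of at least 1 CPM.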

Additional observations from a re-analysis of the deposited data

Results flagged for a closer look

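The difference between T3 and DMSO was itself different at day 19 and at day 7 in 6 of the 10 genes, by edgeR's interaction term over all tested genes. PDGFRB differed by a log2 difference of -0.97 (adjusted p = 0.00101, SE 0.19), at -0.82 at day 19 and 0.15 at day 7. THY1 differed by -1.56 (adjusted p = 0.000356, SE 0.27), at -0.28 at day 19 and 1.28 at day 7. CNN1 differed by -0.61 (adjusted p = 0.00423, SE 0.15), at -0.39 at day 19 and 0.22 at day 7. These 3 genes kept their call without any single library.

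POSTN differed by -3.10 (adjusted p = 0.0247), at -1.75 at day 19 and 1.36 at day 7, where the groups held 13 and 5 counts. It was not called without either DMSO library of day 7 (adjusted p = 0.0830 and 0.0578), or without replicate 2 of T3 at day 7 (-2.02, adjusted p = 0.365). PDGFRA differed by -0.49 (adjusted p = 0.0482, SE 0.18) and kept its call in 2 of 8 fits that left out a library, with a range of -0.84 to -0.22. It was also not called with median-of-ratios size factors (adjusted p = 0.0700), with no filter (adjusted p = 0.0646) or with limma on log2(FPKM + 1), at -0.13 (adjusted p = 0.624), and log2(FPKM + 0.1), at -0.37 (adjusted p = 0.272). TAGLN differed by 0.23 (adjusted p = 0.0476, SE 0.09) and kept its call in 1 of 8 such fits, with a range of 0.17 to 0.30, and was not called with no filter (adjusted p = 0.0653). Pluripotency markers at day 7 and hepatocyte markers at day 19 differed between T3 and DMSO in the same libraries, and their part in these differences was not tested.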

How the results depend on the processing

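Each of the 11 comparisons of the 10 genes was recomputed under the alternatives, which gave 1240 values. Of these, 1155 stayed on their side of the threshold, 52 lost a call, 33 gained 1, and no called value changed sign. The number of the 10 genes called moved as follows. For T4 against T3 at day 19, where 1 gene was called, it was 2 with median-of-ratios size factors, with DESeq2 and with a replicate block, and 0 with no filter, with limma on either FPKM scale and with the libraries of day 19 alone. For T4 against DMSO at day 7, where 1 was called, it was 0 with no filter and with limma on either FPKM scale, 2 with the replicate block and 3 with the libraries of day 7 alone. With those libraries alone it was 4 for T3 against DMSO at day 7, where 2 were called, and 2 for T4 against T3, where 0 were called. For T4 against DMSO at day 19, where 7 were called, it was 5 with limma on log2(FPKM + 0.1) (CNN1, PDGFRA and DCN lost, MYL9 gained), 6 with DESeq2 and 8 with the block. For T3 against DMSO at day 19, where 7 were called, it was 8 with limma on either FPKM scale and with the block. The days with T4 gave 9 with DESeq2 and limma and the days in DMSO 9 with limma, where 10 were called. The difference of the T3 effect gave 4 with no filter and 5 with median-of-ratios size factors and with the block, where 6 were called. With limma on either FPKM scale PDGFRA was lost and DCN gained, at -1.40 on log2(FPKM + 1) and -2.34 on log2(FPKM + 0.1). DCN held only 2 counts with T3 and 2 in DMSO at day 7. The difference of the T4 effect between the days gave 1 with limma on either FPKM scale, where 0 were called. Leaving out a library gave 7 to 9 genes for T3 and 6 to 8 for T4 at day 19, 2 to 2 for T3 and 0 to 0 for T4 at day 7, 0 to 4 for T4 against T3 at day 19 and 0 to 0 at day 7. It gave 3 to 6 for the difference of the T3 effect and 0 to 1 for that of the T4 effect, 10 to 10 for the days in DMSO and with T3, and 9 to 10 with T4. Where this left 1 library in a group, that library was assumed to vary like the other groups.

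The labels number the 2 libraries of each group alike and do not say whether a number marks a shared culture or day. The correlation of replicate differences was -0.12 to 0.20 over 15 pairs of groups, highest for DMSO with T3 at day 19. With 2 libraries a group, such values cannot settle whether the numbers pair the libraries. With the replicate block, calls were gained for THY1 with T4 at day 7 (adjusted p = 0.0472), DES at day 19 with T4 (-0.90) and with T3 (-0.64), and THY1 for T4 against T3 at day 19 (adjusted p = 0.0332). The TAGLN difference of the T3 effect lost its call (adjusted p = 0.0641).

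Over all tested genes, the libraries of day 7 alone gave 5144 calls for T3, where all 12 libraries gave 2891, and 3243 for T4, where they gave 1162. They gave 397 for T4 against T3, where all gave 66, and limma on log2(FPKM + 0.1) gave 34. The libraries of day 19 alone gave 1447 for T4 against T3, where all gave 2848. On log2(FPKM + 1) the median of all genes between the days moved to -0.16 with T4, -0.20 with T3 and -0.24 in DMSO. The share of calls that were higher was 37.3%, 35.3% and 33.1% there, against 49.4%, 48.1% and 51.9% with counts. It was 66.6% for T4 against DMSO at day 19, against 48.9%, and 62.8% for T4 against T3, against 47.2%. It was 57.8% for the difference of the T3 effect, against 44.97%, and 67.2% for that of the T4 effect, against 44.8%. DESeq2 gave 36.9% for T4 against T3 at day 19. Depth limits DCN and POSTN at day 7, where no difference between treatments was detectable.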
